A study of Nilaparvata lugens with 9 samples.

Results

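The let-7, miR-100 and miR-125 families were described in the small RNA of short-winged (SW) female adults of the brown planthopper (BPH), *Nilaparvata lugens*. The deposited table lists 905 miRNA entries with 759 distinct sequences. Members were found by name, as every entry with let-7 in its name and every entry named miR-100 or miR-125 by exactly that number, and each distinct sequence was counted once. This gave 12 of the 759 sequences, from 13 entries, with 8 sequences of let-7, 2 of miR-100 and 2 of miR-125. The libraries came from untreated whole bodies of the short-wing morph at 1 day (1 d), 3 days (3 d) and 5 days (5 d) after emergence, with 3 libraries per phase. Per the methods of the study, a sample was made of 30 insects of a field population reared on rice, and total RNA was pooled. Whether the 3 libraries of a phase came from separate pools is not stated in the sources used here, so p-values measure the spread between these libraries, which may be technical. The reads on listed miRNAs numbered 972506 in 1 d replicate 2, the shallowest library, and up to 3184052 in the others. Levels are given as CPM, reads scaled to one common library size, with TMM scaling, a trimmed mean of ratios that sets libraries on one scale.

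miRNAs are short RNAs cut from the arms of a hairpin, and bases 2 to 8 from the 5′ end, the seed, pair with target mRNAs. In *Drosophila*, let-7, miR-100 and miR-125 lie together in one transcript, the let-7 complex, which is switched on by the steroid hormone ecdysone at metamorphosis and stays on in adults. There let-7 and miR-125 time the change from juvenile to adult form of nerve and muscle, and known targets are abrupt for let-7 and chinmo for let-7 and miR-125. miR-100 belongs to the family of miR-10, and its role in insects is less well described.

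The leading sequence of each family and arm, the one with the highest mean CPM, is shown because these 4 sequences were the members that match the hairpin deposited for their own entry without a mismatch. Prefixes name the species of the closest known miRNA (tca for the beetle *Tribolium castaneum*), L and R the bases added or lost at the 5′ and 3′ ends, and ss a substitution against that known miRNA. Sequences are written 5′ to 3′ in DNA letters, with the seed in capitals.
tca-miR-100-5p_R-2: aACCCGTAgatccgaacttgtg
tca-let-7-5p_R+1: tGAGGTAGtaggttgtatagt
tca-let-7-3p_R-1: cTGTACAGcctgctaactttcc
tca-miR-125-5p_R-1_1ss16CT: tCCCTGAGaccctaatttgtg
No seed is shared among the 4. All 4 lie on the minus strand of scaffold NW_019105995.1, in the coordinates of the deposited table, for which no source used here names a genome build. The let-7 hairpin starts at 280063, the miR-100 hairpin at 282556 and the miR-125 hairpin at 232082. Read along the minus strand, miR-100 comes first, let-7 follows after 2493 nt, and miR-125 lies a further 47981 nt on. One more listed miRNA of this scaffold, the predicted candidate PC-3p-54772_144, starts 87043 nt from let-7 on the plus strand.

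**Figure D1:**
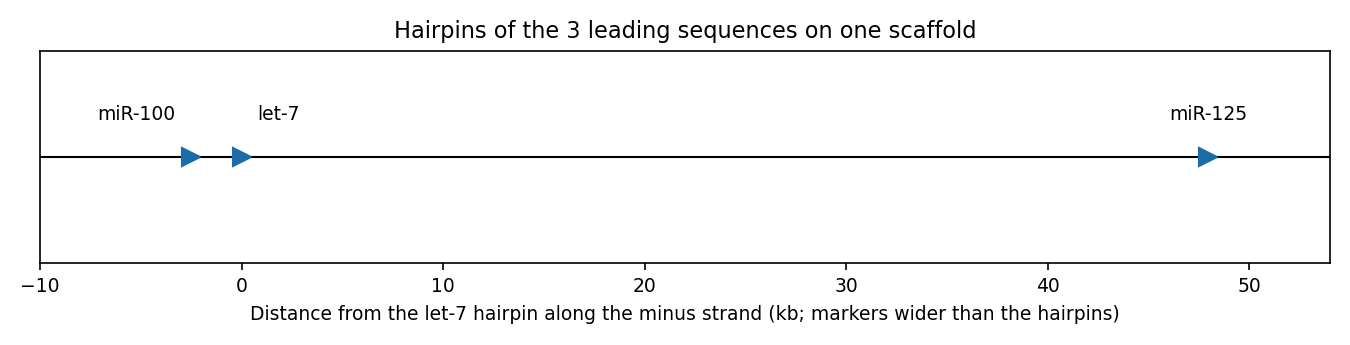
Positions of the hairpins of miR-100, let-7 and miR-125 on one scaffold, as distance in kb from the let-7 hairpin along the minus strand, with arrowheads in the direction of the strand. miR-100 lies 2.49 kb before let-7 and miR-125 lies 47.98 kb after it.

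The deposited precursor of let-7 is 136 nt long, with a folding free energy of -50.2 kcal/mol, and both of its arms were listed as miRNAs. It is shown with the 5p and the 3p sequence in capitals.
let-7 hairpin: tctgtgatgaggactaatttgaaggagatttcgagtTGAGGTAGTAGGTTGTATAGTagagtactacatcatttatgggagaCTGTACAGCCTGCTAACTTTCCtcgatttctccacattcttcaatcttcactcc
The 2 arms are 25 nt apart. The deposited precursor of miR-125 is 84 nt with -37.1 kcal/mol and that of miR-100 is 61 nt with -21.0 kcal/mol, and only one arm of each was listed.

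The other 8 members were lesser sequences that the authors listed under the 5p arm, which does not show that they came from the hairpins above. Positions of substitutions are counted from 1 at the 5′ end of the leading sequence, whose base comes first. The let-7 sequence pte-let-7-5p_1ss12GA carried G12A, outside the seed of the leading sequence, and tca-let-7-5p_R-1_1ss12GA and tca-let-7-5p_L-1_1ss12GA carried the same substitution. Only tca-let-7-5p_R+1_1ss6TA had a substitution inside the seed, T6A. The sequences tca-let-7-5p_R-2 and tca-let-7-5p_L-3R+1 had no substitution, and the first ended 3 bases earlier while the second started 3 bases later. The later start gives tca-let-7-5p_L-3R+1 another seed than the leading sequence, as does the start 1 base later of tca-let-7-5p_L-1_1ss12GA. In miR-100, api-miR-100_R-1_1ss16AT carried A1G and A16T. In miR-125, tcf-miR-125_1ss22AT carried T16C. No genome position was given in the table for 3 members, namely pte-let-7-5p_1ss12GA, api-miR-100_R-1_1ss16AT and tcf-miR-125_1ss22AT, as had 43 of the 759 sequences. The authors placed the 5 positioned lesser let-7 sequences on other scaffolds, and each had 1 mismatch to the precursor given for it there. The letters of tca-let-7-5p_R-2 and tca-let-7-5p_L-3R+1 lie whole within the leading sequence. Both thus also match the let-7 hairpin shown above without a mismatch, and from which hairpin they came was not tested. The precursor given for tca-let-7-5p_R-2 had a folding free energy of -23.4 kcal/mol over 87 nt. The leading miR-100 sequence had -21.0 kcal/mol over 61 nt, and the let-7 hairpin had -50.2 kcal/mol over 136 nt. These energies are not scaled for length. The other precursors given for lesser let-7 sequences folded weakly, with values from -7.9 to 0.4 kcal/mol. Sequences of members without an exact match to a precursor given for their own entry are not printed.

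The library of 1 d replicate 2 stood apart in these families. All members together took 21.4% of its reads, against 6.62% to 13.2% in the other 8 libraries. Sequences without a genome position took 5.12% of its reads, against 0.607% to 0.829%, and the 3 such members alone took 4.56%, against 0.0234% to 0.197%. Among sequences with at least 100 reads in all, 8 of 27 without a position and 5 of 266 with one had more of their summed CPM in that library than in the other 8 together. These include 3 and 2 members, and among non-members the counts were 5 of 24 and 3 of 260. Each other library had 0 such sequences without a position and 0 to 2 with one. The part of this library in the differences between phases is given below as the value without it, and the origin of the sequences without a position was not tested.

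The leading miR-100 sequence, tca-miR-100-5p_R-2, was the most abundant member and ranked 3 among the 759 sequences by mean CPM. It measured 112952, 129244 and 62921 CPM in the 3 libraries of 1 d. The libraries of 3 d held 53032, 52036 and 71248 CPM, and those of 5 d held 76291, 51466 and 62638 CPM. The first 2 libraries of 1 d were the highest of all 9, while replicate 3 lay within the range of the later phases, so no pair of phases was separated. The means were 101706 ± 34562 CPM at 1 d, 58772 ± 10816 at 3 d and 63465 ± 12433 at 5 d (SD, n = 3). In order of level 1 d was followed by 5 d and 3 d, and neither 1 d against 5 d (exact permutation test of 3 against 3 libraries, 2-sided, p = 0.2) nor 5 d against 3 d (exact p = 0.7) differed beyond the spread. In a whole body, fewer cells of a type and less RNA per cell cannot be told apart.

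The leading let-7 sequence, tca-let-7-5p_R+1, ranked 14. Its levels were 15807, 43683 and 10414 CPM at 1 d, and the second of these was the highest of the 9 libraries. At 3 d it measured 11518, 6456 and 8462 CPM, and at 5 d 9399, 8201 and 7896 CPM. All libraries of 5 d were below all of 1 d, whereas those of 3 d overlapped with both other phases. The means were 23302 ± 17856 CPM at 1 d, 8812 ± 2549 at 3 d and 8499 ± 795 at 5 d (SD, n = 3). The exact permutation p was 0.1 for 5 d against 1 d, the smallest that 3 against 3 libraries allow. It was 0.2 for 3 d against 1 d and 0.8 for 5 d against 3 d, the neighbours in this order.

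The leading miR-125 sequence, tca-miR-125-5p_R-1_1ss16CT, ranked 18. It measured 7740, 26814 and 7577 CPM at 1 d. The libraries of 3 d held 3560, 6864 and 6164 CPM and those of 5 d held 6553, 3121 and 7758 CPM. Every library of 3 d was below every library of 1 d, and 1 library of 5 d exceeded the lower pair of 1 d. The means were 14044 ± 11059 CPM at 1 d, 5811 ± 2406 at 5 d and 5529 ± 1741 at 3 d (SD, n = 3), with an exact permutation p of 0.3 for 5 d against 1 d and 0.9 for 5 d against 3 d, the neighbours in this order, and 0.1 for 3 d against 1 d.

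The 3p arm of let-7, tca-let-7-3p_R-1, is the strand opposite to the abundant one and ranked 76. It measured 492, 537 and 769 CPM at 1 d, 288, 589 and 587 CPM at 3 d, and 320, 487 and 434 CPM at 5 d. The libraries of 5 d were all below those of 1 d, by a narrow margin, and 1 d replicate 2 was not raised here. The means were 599 ± 149, 488 ± 173 and 414 ± 85.8 CPM (SD, n = 3), in the order of the phases, and neighbours in this order gave an exact permutation p of 0.6.

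**Figure D2:**
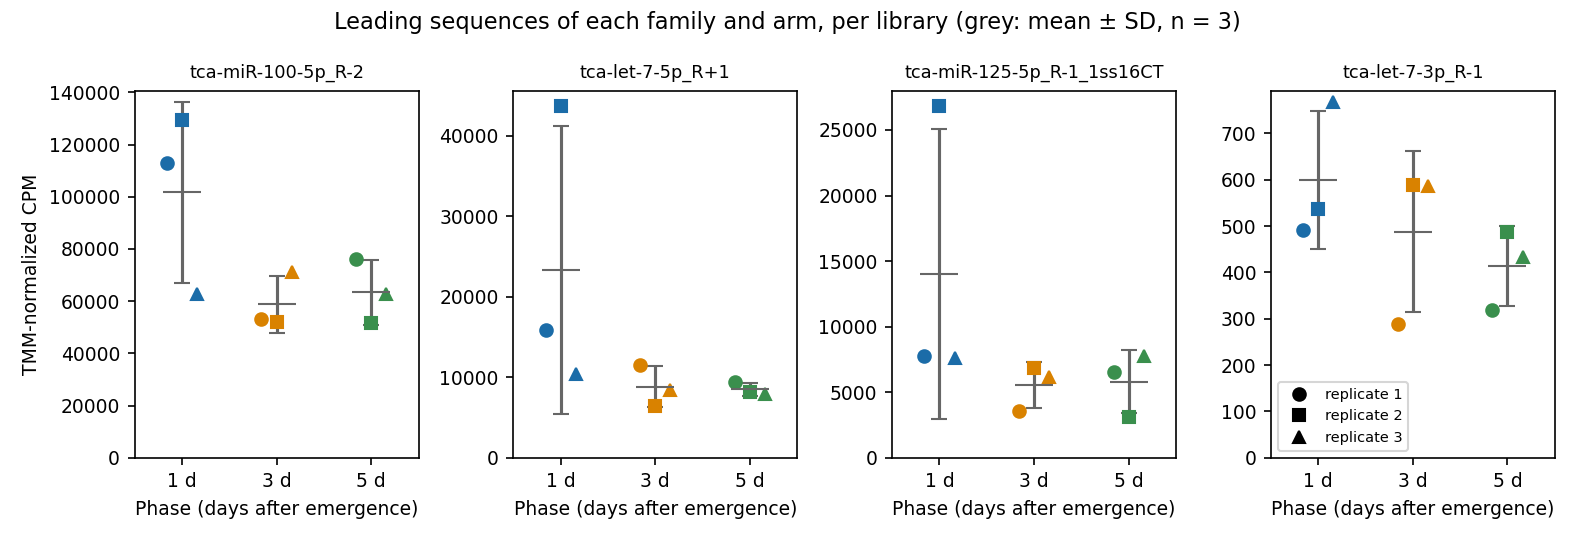
TMM-normalized CPM of the leading sequences of miR-100, let-7 (5p and 3p) and miR-125 in each library, by phase, with the mean and SD of 3 libraries in grey. The 1 d replicate 2 square is the highest point for the 3 5p sequences, at 129244, 43683 and 26814 CPM, but not for the 3p arm of let-7, at 537 CPM.

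Among the lesser members, the let-7 sequence with G12A and no genome position, pte-let-7-5p_1ss12GA, was the most abundant and ranked 23. It measured 1913, 47788 and 291 CPM at 1 d, 1571, 341 and 411 CPM at 3 d, and 409, 269 and 217 CPM at 5 d. In 1 d replicate 2 it exceeded the leading let-7 sequence, and in each other library it lay below it. The miR-100 sequence api-miR-100_R-1_1ss16AT measured 19.2, 4009 and 12.5 CPM at 1 d, 30.6, 4.13 and 27.3 CPM at 3 d, and 6.78, 2.51 and 8.05 CPM at 5 d. Its libraries of 5 d lay below all of 1 d, including the 2 without the high value. The miR-125 sequence tcf-miR-125_1ss22AT measured 29.7, 2714 and 17.7 CPM at 1 d, 85.8, 14.5 and 28.8 CPM at 3 d, and 33.2, 14.6 and 6.81 CPM at 5 d. For these 3 members the highest library was 1 d replicate 2, at 25.0, 131 and 31.6 times the highest of the other 8.

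The short form tca-let-7-5p_R-2 measured 9.04, 344 and 6.83 CPM at 1 d, 31.9, 4.39 and 7.80 CPM at 3 d, and 15.8, 21.5 and 12.1 CPM at 5 d. It too was highest in 1 d replicate 2. The form tca-let-7-5p_R-1_1ss12GA had reads in 3 of 9 libraries, at 221 CPM in 1 d replicate 2, 1.63 CPM in 3 d replicate 1 and 1.05 CPM in 3 d replicate 3. A count of 0 in the others allows up to 3 reads each. The remaining members stayed under 10 CPM in each phase, with 22.5 estimated reads in all for tca-let-7-5p_L-3R+1, 6.5 for tca-let-7-5p_R+1_1ss6TA and 4 for tca-let-7-5p_L-1_1ss12GA.

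**Figure D3:**
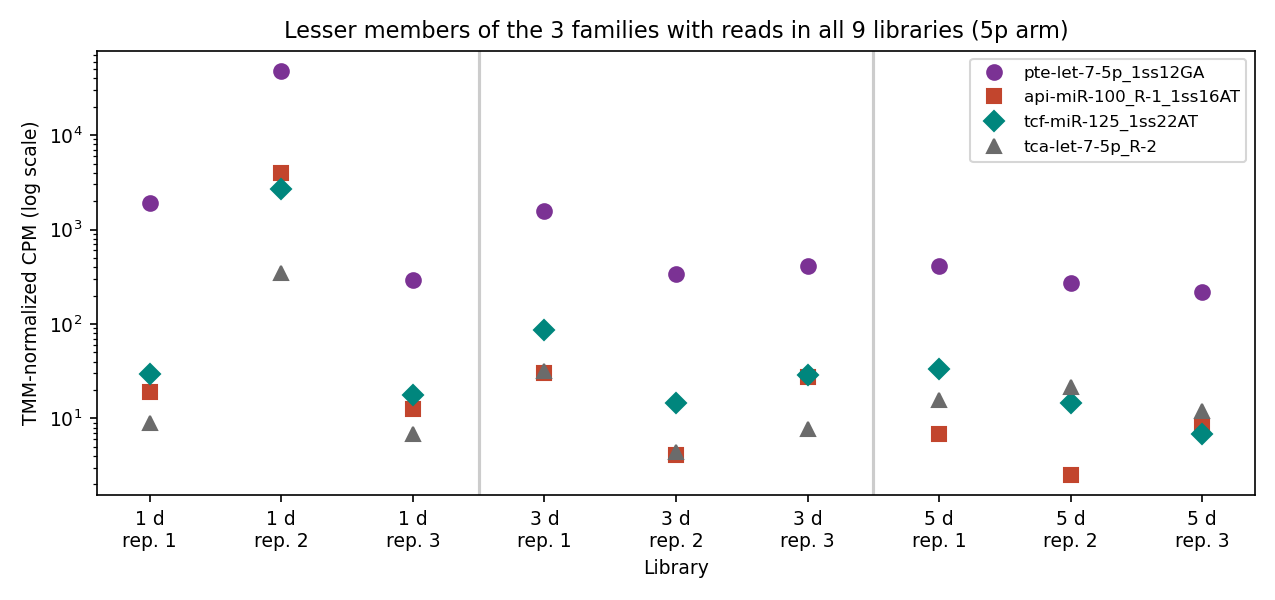
TMM-normalized CPM, on a log axis, of the 4 lesser members with reads in all 9 libraries. The 1 d replicate 2 values, 47788, 4009, 2714 and 344 CPM, lie above all others of the same sequence, whose highest are 1913, 30.6, 85.8 and 31.9 CPM.

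The share of let-7 5p reads with G12A summarises this within a library, free of scaling. It was 10.8%, 52.2% and 2.72% at 1 d, 11.98%, 5.01% and 4.64% at 3 d, and 4.16%, 3.17% and 2.67% at 5 d. The 95% Wilson interval in 1 d replicate 2 was 51.8% to 52.5% and in 3 d replicate 1, the next highest, 11.5% to 12.4%, and such intervals cover counting error only. Apart from 1 d replicate 2, the libraries 1 d replicate 1 and 3 d replicate 1 were above the others.

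The ratio of the leading let-7 5p to the 3p sequence was 81.3 reads per read in 1 d replicate 2 and 11.0 to 40.0 in the other 8 libraries. The ratio thus varied 7.42-fold over all 9 libraries, with its highest value in 1 d replicate 2. Whether all 5p reads of that library came from this hairpin was not tested. The libraries numbered 1 in each phase (32.1, 40.0 and 29.4) were above all others except 1 d replicate 2. The CPM ratio of miR-100 to let-7 was 2.96 in 1 d replicate 2 and 4.60 to 8.42 elsewhere, and that of miR-100 to miR-125 was 4.82 and 7.58 to 16.5. The ratio of let-7 to miR-125 in 1 d replicate 2 was 1.63, inside the range of 0.941 to 3.24 of the others. Means of the miR-100 to let-7 ratio were 5.38 ± 2.17 at 1 d, 7.03 ± 2.11 at 3 d and 7.44 ± 1.01 at 5 d (SD, n = 3).

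**Figure D4:**
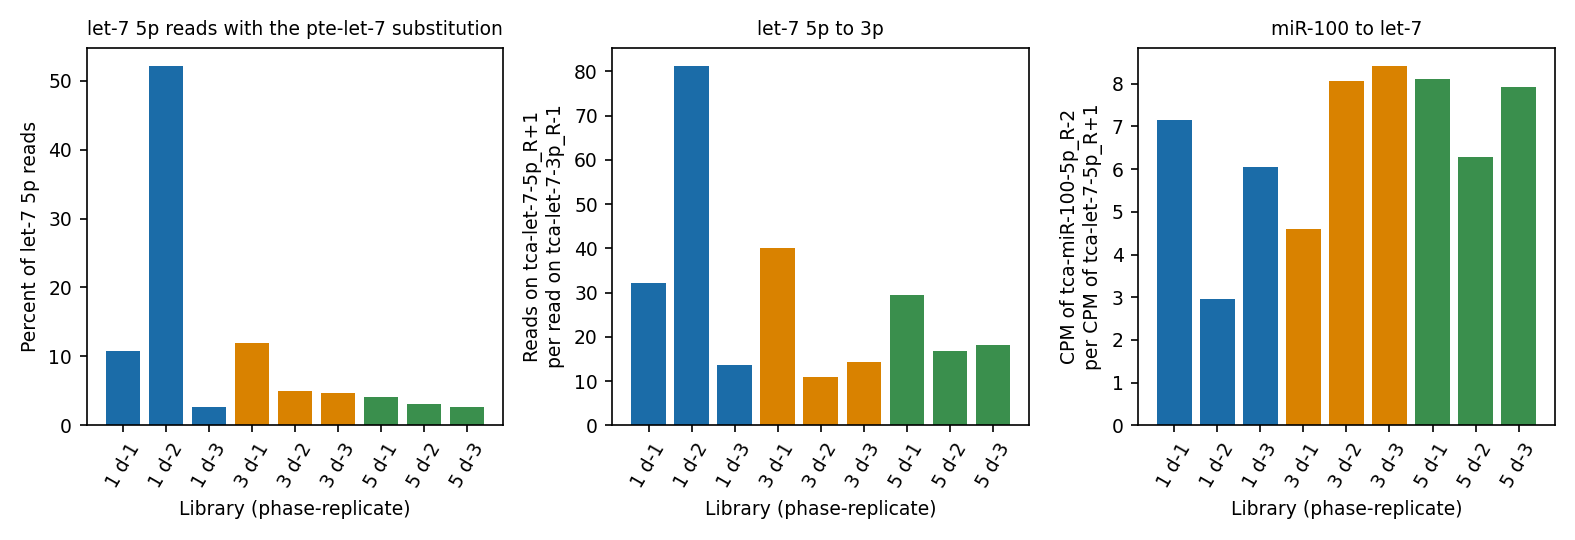
Share of let-7 5p reads with G12A in percent, reads on the leading 5p per read on the 3p sequence of let-7, and CPM of miR-100 per CPM of let-7, one bar per library coloured by phase. The library 1 d replicate 2 is highest in the first 2 panels, at 52.2% and 81.3, and lowest in the third, at 2.96.

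The phases were then compared with edgeR's quasi-likelihood test over all sequences. Of the 12 members, 8 passed the filter on low counts, and 0 were called in any comparison at a Benjamini-Hochberg adjusted p below 0.05. Among the 341 sequences tested, the share called in 3 d vs. 1 d was 0%. It was 1.47% in the comparison of 5 d with 1 d, 0% for 5 d with 3 d, and 1.17% over all 3 phases. At an unadjusted p below 0.05, 6, 6, 0 and 6 members were below the threshold in these comparisons, beside 29, 39, 8 and 28 of the 341 sequences (8.5%, 11.4%, 2.35% and 8.21%). DESeq2 gave neither a p nor an adjusted p for api-miR-100_R-1_1ss16AT, tcf-miR-125_1ss22AT and tca-let-7-5p_R-2. Of the other 5 it called 1, 1, 0 and 1 members. Over all 335 sequences with an adjusted p it called 6, 13, 2 and 12 (1.79%, 3.88%, 0.597% and 3.58%).

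In 3 d vs. 1 d, the log2 fold change of the leading sequences by edgeR was -0.79 ± 0.28 (SE) for miR-100, -1.40 ± 0.48 for let-7 and -1.34 ± 0.55 for miR-125. The 95% interval of the let-7 change was -2.47 to -0.33, with an adjusted p of 0.495 by edgeR. The 3p arm of let-7 had -0.30 ± 0.35. Without 1 d replicate 2, the 4 values were -0.57, -0.57, -0.46 and -0.35. The lesser members had -4.43 ± 1.55 for pte-let-7-5p_1ss12GA, -6.02 ± 2.04 for api-miR-100_R-1_1ss16AT, -4.42 ± 1.75 for tcf-miR-125_1ss22AT and -3.04 ± 1.43 for tca-let-7-5p_R-2. Without that library the first became -0.52 and the other 3 turned direction, to 0.39, 0.86 and 0.87.

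In 5 d vs. 1 d, the leading sequences had -0.68 ± 0.28 for miR-100, -1.45 ± 0.48 for let-7 and -1.27 ± 0.55 for miR-125, and the 3p arm of let-7 had -0.53 ± 0.35 (log2, edgeR, SE). The edgeR adjusted p of let-7 was 0.275, with an interval of -2.53 to -0.38. Without 1 d replicate 2 the values were -0.49, -0.65, -0.40 and -0.61, so the change of the 3p arm was as large without it while let-7 and miR-125 moved by over 1.5 times. The lesser members had -5.80 ± 1.66 for pte-let-7-5p_1ss12GA, -7.86 ± 2.24 for api-miR-100_R-1_1ss16AT, -5.64 ± 1.86 for tcf-miR-125_1ss22AT and -2.83 ± 1.41 for tca-let-7-5p_R-2, and without that library -1.93, -1.46, -0.43 and 1.04.

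In 5 d vs. 3 d the library is in neither phase, but the spread behind the SE, intervals and p-values was estimated from all 9 libraries. The leading sequences had 0.11 ± 0.28 for miR-100, -0.05 ± 0.47 for let-7, 0.07 ± 0.54 for miR-125 and -0.24 ± 0.35 for the 3p arm of let-7 (log2, edgeR, SE). The 95% intervals were -0.52 to 0.74 for miR-100, -1.10 to 1.00 for let-7 and -1.14 to 1.29 for miR-125, so changes of up to about these sizes could not be told from none. The lesser members lay between -1.84 ± 1.81 and 0.21 ± 1.34. The adjusted p by edgeR was 0.992 for all 8. Without 1 d replicate 2, the unadjusted edgeR p went from 0.333 to 0.0499 for api-miR-100_R-1_1ss16AT and from 0.343 to 0.0885 for pte-let-7-5p_1ss12GA. That of the leading miR-100 sequence rose from 0.702 to 0.769. The edgeR adjusted p of each was then 0.995.

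**Figure D5:**
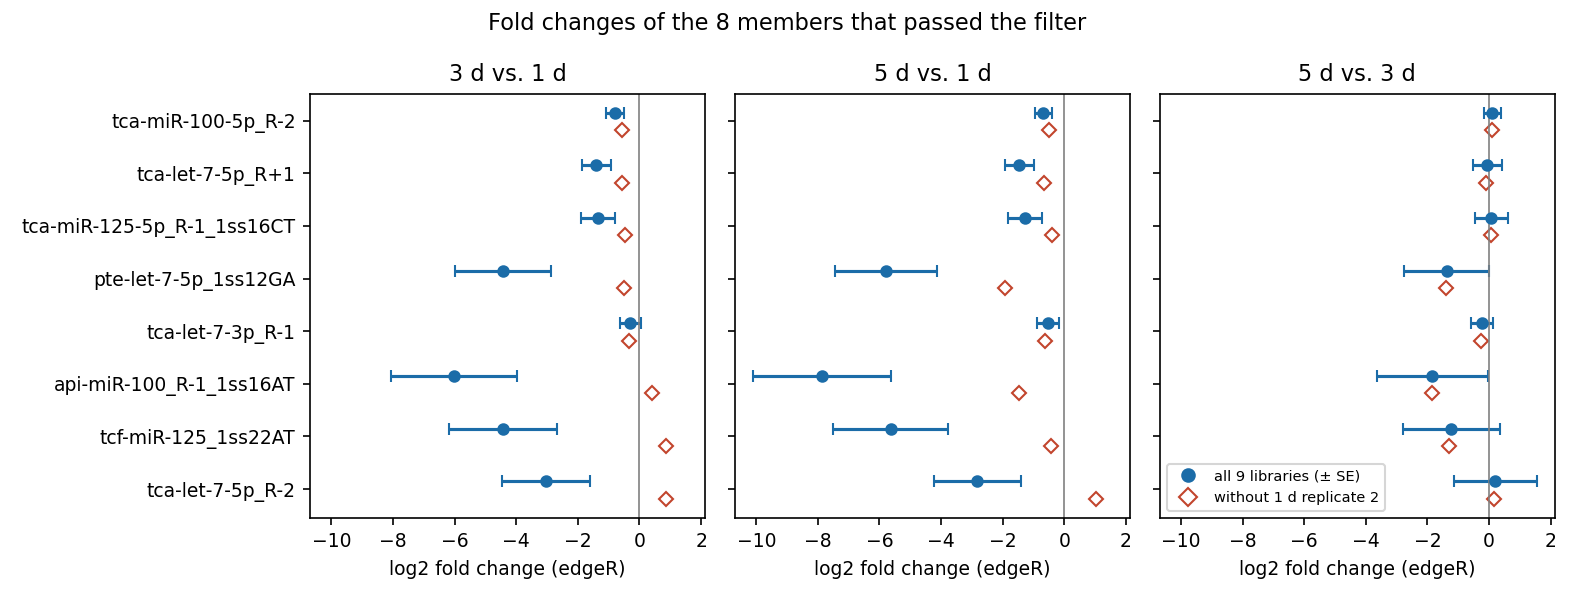
log2 fold changes by edgeR of the 8 members that passed the filter, for each pair of phases, from all 9 libraries (filled, bars are SE) and without 1 d replicate 2 (open). Without it the api-miR-100_R-1_1ss16AT value of 3 d vs. 1 d goes from -6.02 to 0.39, and the miR-100 value from -0.79 to -0.57.

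Members whose libraries did not overlap and were lower in the later phase numbered 1 of 8 in 3 d vs. 1 d (miR-125) against 3.52% of all sequences tested, 3 of 8 in 5 d vs. 1 d (let-7 5p, let-7 3p and api-miR-100_R-1_1ss16AT) against 7.62%, and 0 in 5 d vs. 3 d against 2.64%. These counts are a description, since the 2 let-7 leads are listed at one hairpin and all 8 sequences were measured with the library that stood apart.

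Over the 9 libraries, Pearson's r between log2(CPM + 1) of the leading sequences was 0.836 for miR-100 and let-7 (permutation p = 0.00468, adjusted over 3 pairs 0.00723), with Spearman's rho of 0.717 (permutation p = 0.0369, adjusted 0.111). It was 0.790 for miR-100 and miR-125 (permutation p = 0.00482, adjusted 0.00723), with rho of 0.617 (permutation p = 0.0857, adjusted 0.129). For let-7 and miR-125, r was 0.760 (permutation p = 0.0527, adjusted 0.0527) and rho 0.300 (permutation p = 0.437, adjusted 0.437). Without the 2 libraries farthest from the median, 1 d replicates 1 and 2, r became 0.190, 0.568 and -0.286, so the relations of let-7 rested on those libraries. Without 1 d replicate 2 alone, r was 0.703, 0.558 and 0.0610. Within phases, the deviations from the phase means over all 9 libraries, 1 d replicate 2 included, had r of 0.674, 0.627 and 0.566.

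Among the sequences that are no members, the pattern most like miR-125 over the 9 libraries was that of tca-miR-10-5p (r = 0.967, and 0.913 without 1 d replicate 2), a miRNA that in other insects lies in the Hox cluster. It was also most like miR-100 (r = 0.866, and 0.734 without that library), followed by tca-miR-137-3p_L-1R+1_1ss18AG (0.837, and 0.890) and tca-miR-92a-3p_L+1R+1_1ss10AT (0.819, and 0.674). For let-7 the most alike were pte-miR-92c-3p_1ss18TC (0.942, and 0.808 without that library) and isc-miR-96_R-1 (0.924, and 0.704), both without a genome position, and tca-miR-92a-3p_L+1R+1_1ss10AT (0.887, and 0.882 without 1 d replicate 2). For miR-125, dvi-miR-10-5p_1ss22TG (0.878, and 0.519 without that library) and PC-3p-134153_48 (0.692, and 0.559) followed. The isc-miR-96_R-1 level was 304 CPM in 1 d replicate 2 and 0 to 8.67 CPM elsewhere, and that of dvi-miR-10-5p_1ss22TG was 1457 CPM against 5.85 to 37.7 CPM. tca-miR-10-5p had 23862 CPM in 1 d replicate 2 and 2473 to 8907 CPM elsewhere.

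A list of miRNAs tied to the ecdysone pathway in other insects (miR-34, miR-14, miR-8, miR-281 and bantam) held 30 sequences, of which 15 were tested. The tested sequences were of miR-34, miR-14, miR-8 and miR-281, and none was of bantam. The values of tca-miR-8-5p_R+2_1 and tca-miR-8-5p_R+2_2 were the same. Of the 15, 1 was called higher in 5 d vs. 1 d and 0 lower, with 0 in the other pairs of phases and 1 over all 3 phases, beside the shares of all sequences called of 1.47%, 0% and 1.17% given above. At an unadjusted p below 0.05 the list had 1 sequence in each comparison, against 8.5%, 11.4%, 2.35% and 8.21% of all sequences. The one called, named after its values were seen, was tca-miR-34-5p_R+3 (log2 fold change 1.80 ± 0.23, SE, edgeR adjusted p = 0.00826, and 0.0302 over all 3 phases). The whole body label was met by miRNAs of several tissues in every library, with muscle miR-1 at 43140 to 62921 CPM, muscle miR-133 at 1996 to 4090 CPM and nerve miR-124 at 402 to 1724 CPM.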

How the data were processed

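Small RNA libraries of 9 samples, 3 per phase, were analysed from one deposited table. Per the study's methods, small RNA of 18 to 26 nt was isolated on a gel, and the authors filtered and annotated reads with ACGT101-miR, dropping those of mRNA, repeats and Rfam families, before a search of miRBase 22.0 and the genome. No source used here names the program version or the genome build. The sample labels describe a poly(A) mRNA protocol instead. The authors deposited raw columns, each an estimated count of reads per miRNA, not whole where reads were split between entries, and normalized columns, a signal made by multiplying each library by one factor between 0.566 and 2.49. The deposited table also gives the authors' GC content of each precursor in percent and its folding free energy, recorded as a score. Raw columns were rounded for the tests.

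Entries with one sequence were counted once. edgeR 4.0.16 (legacy quasi-likelihood F-test, TMM, default filter by phase, R 4.3.3) was fitted to all 9 libraries with phase as the only term. SE is the absolute log2 fold change divided by the square root of F. Single members were compared with exact permutation tests on mean CPM. All tests were 2-sided. Depth was 972506 to 3184052 reads, and 1 read equals 0.300 to 1.23 CPM. Members, lists and tests were chosen with earlier results of these data known. Leading sequences and members of at least 10 CPM in a phase were described singly, with the 3 non-members most alike each lead. The plan to print substituted members was not followed, since none has an exact match to a precursor given for its own entry. The edgeR script was tested on simulated data. Alternatives were DESeq2 1.42.0, limma 3.58.1 on the normalized counts (pseudocounts 1, 0.5 and 10), the study's own comparison, other scalings and filters, an unadjusted p, fewer libraries, a replicate block, summed families, unrounded counts and each library left out. The newer edgeR estimator, and no filter or DESeq2 without 1 d replicate 2, were added after the data had been seen. Work on tables used Python 3.11.15, pandas 2.3.3 and scipy 1.17.1.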

Additional observations from a re-analysis of the deposited data

How the results depend on the processing

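The count of members called was 0 in each comparison with edgeR and stayed 0 under limma, the study's own comparison, other scalings, a filter of 10 CPM, only the libraries of the 2 phases, summed families, unrounded counts and the newer edgeR estimator. Leaving out each library in turn gave 0 to 0. Listed for 3 d against 1 d, then 5 d against 1 d, then 5 d against 3 d and then all phases, no filter gave 7, 7, 2 and 7 members (19, 26, 2 and 27 of all 759 sequences), an unadjusted p 6, 6, 0 and 6 (29, 39, 8 and 28 of 341), and DESeq2 1, 1, 0 and 1 (6, 13, 2 and 12 of 335). The cause was not tested. The DESeq2 call was pte-let-7-5p_1ss12GA in each, with an adjusted p of 0.0245, 0.000188 and 0.00124. Without 1 d replicate 2, DESeq2 called 0 members in each (2, 12, 1 and 8 of 383 to 391 sequences) and no filter 0, 1, 0 and 1 (2, 8, 1 and 10 of 739), the call being pte-let-7-5p_1ss12GA (log2 fold change -1.88, edgeR adjusted p = 0.00154 in 5 d vs. 1 d). This member measured 1913 and 291 CPM in 1 d replicates 1 and 3, and 409, 269 and 217 CPM at 5 d. With the default filter and without 1 d replicate 2, its edgeR adjusted p was 0.675 in 5 d vs. 1 d.

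The r of deviations from the phase means ran from -0.385 to 0.417 over 9 same-numbered pairs of libraries. It ran from -0.513 to 0.496 over 18 pairs with different numbers. Whether the replicate numbers mark libraries handled together was not tested. With the replicate block 0 members were called, the value of let-7 in 5 d vs. 1 d was -1.31 (edgeR adjusted p = 0.508), and tca-let-7-5p_R-2 in 5 d vs. 3 d turned to -0.013. In 3 d vs. 1 d the block gave -3.40 for api-miR-100_R-1_1ss16AT, -2.28 for tcf-miR-125_1ss22AT, -2.84 for pte-let-7-5p_1ss12GA and -1.51 for tca-let-7-5p_R-2, each over 1.5 times smaller than without it. With limma and a pseudocount of 1 these 4 were -2.69, -1.79, -2.33 and -1.42, and in 5 d vs. 1 d -4.03, -2.77, -3.26 and -0.70.

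The let-7 5p value of 5 d vs. 3 d turned to 0.0054 under DESeq2, 0.0055 under its size factors in edgeR, 0.092 under the authors' factors and the study's own comparison, 0.12 under limma with each pseudocount, 0.036 with only the libraries of the 2 phases, and 0.022 with no filter and without 1 d replicate 2. Leaving out each library gave -0.27 to 0.17 for it, -0.024 to 0.29 for miR-100, -0.19 to 0.40 for miR-125 and -0.27 to 1.44 for tca-let-7-5p_R-2. In 3 d vs. 1 d, leaving out each library gave -6.83 to 0.39 for api-miR-100_R-1_1ss16AT, -5.44 to 0.86 for tcf-miR-125_1ss22AT and -4.33 to 0.87 for tca-let-7-5p_R-2, which in 5 d vs. 1 d had -3.59 to 1.04. Without 1 d replicate 2, these 4 values were 0.33, 0.76, 0.76 and 1.08 with no filter, and 0.40, 0.90, 0.91 and 1.11 under DESeq2. Of 624 fold changes under the alternatives, 574 kept direction and side of the threshold. Fold changes of DESeq2 that had no adjusted p were counted there by direction alone. Of the family levels and shares of reads, 13 moved by 1 SD or more, all on the authors' normalized scale or without entries that lack a genome position. The authors' scale is not CPM, so moves on it include a change of units. Leaving out 1 of 3 libraries cannot move a mean by 1 SD, so those settings could not count as moved.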
